A study of Mus musculus with 26 samples.

Results

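The 10 genes described here encode the cytotoxic granule of killer lymphocytes and the receptors and transcription factor by which natural killer (NK) cells are recognised: Gzma, Gzmb, Gzmk, Gzmm, Prf1, Nkg7, Ncr1, Klrg1, Klrb1c and Eomes. They were taken by symbol from a spleen RNA table of 56392 genes, and all 10 were found in it. They were chosen by their lower FPKM, in part of the group, in mice given ovalbumin, the main protein of egg white and a common model allergen, so their difference between ovalbumin and saline is a description here and carries no test. The question followed is whether the lower levels moved back when the mice also received a synthetic miR-676-3p, a mimic of that microRNA.

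All mice were female BALB/c aged 8 weeks, with 20 mice per group by the labels, and poly(A) RNA of the spleen was sequenced. Saline or ovalbumin (OVA, 0.05 mg per day) was injected into the peritoneum on days 1, 3 and 5, and a further group received OVA and, on day 3, the mimic by tail vein at 7 mg per kg. No group received the mimic without OVA, and no control oligonucleotide is named. The 26 libraries carry codes of undefined meaning, which are CT for saline (5 libraries), OS (6) and ON (5) for OVA, and MM (5) and MN (5) for OVA plus mimic. Nothing in the labels ties a library to its own mouse, so the p-values below measure the spread between libraries, which may be technical.

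NK cells and CD8 T cells kill by releasing granules onto a target cell. Perforin opens the target membrane, and granzymes, a family of serine proteases, pass through and cleave proteins inside. In the spleen NK cells are a small share of lymphocytes, and most of the granule genes are also expressed by activated or memory CD8 T cells, so no granule gene marks NK cells alone. Ncr1, which encodes the activating receptor NKp46, is the most NK-restricted of the 10 genes, although some innate lymphoid cells carry it too.

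The seed of the mimicked microRNA (bases 2 to 8, in capitals) is shown because it sets which transcripts could pair with it. The RefSeq sequence lies at chrX:100381151-100381171 on the + strand of GRCm38.p6.
mmu-miR-676-3p: cCGUCCUGagguuguugagcu
A full match to the seed, CAGGACG, was found in the 3′ UTR of 0 of the 10 genes and in 2.6% of 21020 genes with an annotated 3′ UTR. The shorter match AGGACG was found in 1 of the 10, Eomes, and in 8.13% of genes, and the form AGGACGA in 0 of the 10 and 2.04% of genes. The stretch around the Eomes match, with the match in capitals, begins 12 bases before it.
Eomes: taaagtgactggAGGACGcaggagtgtt
These matches are letters only, and binding was not measured.

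The promoters of the 3 genes on which the results turn and which RefSeq's GRCm38.p6 table holds are printed from 250 bases before to 50 bases after the start of transcription. The genes are Gzma (chr13:113100932-113101231, - strand), Gzmb (chr14:56262285-56262584, - strand) and Ncr1 (chr7:4337465-4337764, + strand, the first of 2 starts), and Klrg1 was not matched. Capitals mark 2 motifs searched on both strands, a RUNX motif (TGTGGT, or ACCACA on the other strand) and a STAT motif (TTCNNNGAA), which do not overlap here.
Gzma: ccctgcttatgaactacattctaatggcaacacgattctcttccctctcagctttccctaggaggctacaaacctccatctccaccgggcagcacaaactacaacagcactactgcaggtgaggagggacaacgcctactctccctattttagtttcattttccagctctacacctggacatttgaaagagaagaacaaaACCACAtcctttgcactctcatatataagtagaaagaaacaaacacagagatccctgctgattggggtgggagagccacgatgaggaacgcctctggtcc
Gzmb: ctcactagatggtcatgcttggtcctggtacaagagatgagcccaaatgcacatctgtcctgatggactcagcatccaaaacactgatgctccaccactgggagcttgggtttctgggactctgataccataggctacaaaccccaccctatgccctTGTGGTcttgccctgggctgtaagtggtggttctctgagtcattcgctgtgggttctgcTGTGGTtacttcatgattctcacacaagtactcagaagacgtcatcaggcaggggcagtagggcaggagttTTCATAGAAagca
Ncr1: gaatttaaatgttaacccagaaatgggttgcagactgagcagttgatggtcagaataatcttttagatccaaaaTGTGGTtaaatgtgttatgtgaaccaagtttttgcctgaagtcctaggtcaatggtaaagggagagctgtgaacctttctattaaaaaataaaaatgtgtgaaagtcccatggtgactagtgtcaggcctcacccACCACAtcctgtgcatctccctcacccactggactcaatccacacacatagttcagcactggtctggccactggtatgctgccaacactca
The RUNX motif occurred in the promoters of 7 of the 9 matched genes (all but Gzmk and Eomes), against 18.9% of the 27025 genes in the table. The STAT motif occurred in 3 of 9 (Gzmb, Gzmm and Nkg7), against 9.55%, and a T-box motif (GGTGTGA), the kind of sequence Eomes recognises, in 3 of 9 (Gzmk, Gzmm and Nkg7), against 4.6%. In the Gzma promoter the RUNX match begins 50 bases before the start. No binding was measured in these samples.

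Values are FPKM, fragments scaled by gene length and an effective library size (described under processing), so levels can be set side by side between genes. Averaged over 26 libraries, Nkg7, a granule membrane protein, was highest at 32.1 FPKM, with Gzma close to it at 29.96. Then came Ncr1 at 7.74, Prf1 (perforin) at 7.49 and Gzmb at 5.58. Eomes, the T-box factor of mature NK cells, stood at 2.95, Klrg1, an inhibitory receptor of mature NK and effector T cells, at 2.53, Gzmk at 1.85, Gzmm at 1.26 and Klrb1c at 1.15. Neighbours in this order overlap library by library, and only the step from Gzma to Ncr1 separates all libraries: the lowest Gzma value was 16.8 and the highest Ncr1 value 11.9. The depth behind these values is small for the low genes: 12 to 62 reads per library for Gzmm and 15 to 84 for Klrb1c, against 269 to 739 for Gzma. Granzymes and the Klrb1 receptors are families of similar genes whose reads the authors' counting could share out, and the sources used here do not state whether strand was used. Klrb1c encodes the NK1.1 receptor, whose classic antibody epitope BALB/c mice lack, so its reads in particular are uncertain.

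Recovered reads ranged from 14224832 to 18113989 per library. The spleen markers Cd79a (B cells, 304.3 FPKM on average), Cd3e (T cells, 12.2) and Spic (red pulp macrophages, 40.2) were above 0 in all 26 libraries. Pancreas genes made up 24.2% of the reads of ON 2, 11.9% of MM 2 and 3.63% of ON 3, while no other library exceeded 0.00307%. Mitochondrial genes held 6.62% of the reads of CT 4, where the remaining saline libraries reached 1.81% at most, and CT 4 was the lowest saline library for 9 of the 10 genes, Ncr1 being the exception. These libraries were kept, and several results that rest on them are also given without them.

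**Figure D1:**
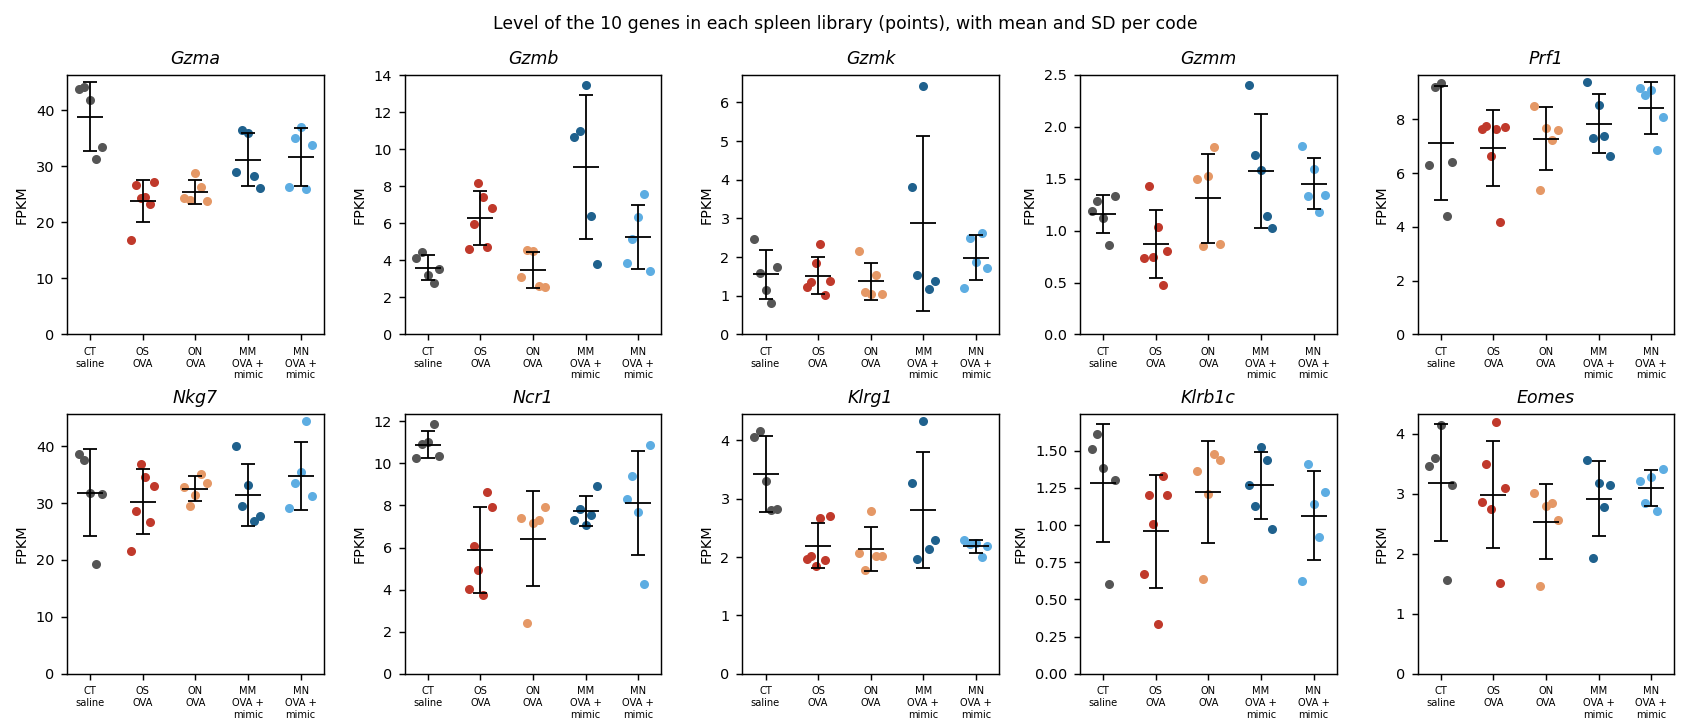
FPKM of each of the 10 genes (1 panel per gene) in the 26 spleen libraries, by code; points are libraries and bars the mean with SD. The OVA libraries (red and orange) lie below all 5 saline libraries for Gzma, Ncr1 and Klrg1, while the 6 OS libraries lie above the saline libraries for Gzmb.

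Under OVA, 3 of the 10 genes were lower in every library than in any saline library: Gzma, Ncr1 and Klrg1. The other 7 overlapped with saline, and Gzmb was on average higher. This contrast chose the genes, so it carries no test.

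Gzma (ENSMUSG00000023132, chromosome 13, 113230359 to 113237515, on a build the table does not name) encodes a tryptase that is stored ready-made in resting NK cells. For Gzma, Gzmb and Ncr1 these gene positions do not match the GRCm38.p6 promoter positions above, so they cannot be laid side by side. In saline the Gzma level was 43.8, 44.3, 41.8, 31.3 and 33.4 FPKM. In OS it was 16.8, 26.7, 24.4, 24.5, 23.2 and 27.2, and in ON 24.3, 24.0, 28.9, 26.4 and 23.8. All 11 OVA libraries were below the lowest saline library, CT 4, and the OVA mean of 24.6 ± 3.10 (SD, n = 11) was 63.1% of the saline mean of 38.9 ± 6.09 (n = 5). In whole spleen, fewer cells of a type and less RNA per cell cannot be told apart, here and below.

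Ncr1 (ENSMUSG00000062524, chromosome 7, 4340723 to 4348163) had the narrowest spread of the 10 genes in saline relative to its mean, at 10.3, 10.9, 11.01, 11.9 and 10.3 FPKM. It was 4.04, 6.06, 4.92, 3.73, 8.63 and 7.91 in OS, and 7.39, 2.39, 7.15, 7.30 and 7.90 in ON. Every OVA library was below every saline library, and the spread was wide: ON 2, the library with the most pancreatic reads, was lowest and OS 5 highest. The OVA mean was 6.13 ± 2.05 (n = 11), which is 56.3% of the saline mean of 10.9 ± 0.647 (n = 5).

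Klrg1 (ENSMUSG00000030114, chromosome 6, 122247555 to 122259841) stood at 4.05, 4.15, 3.30, 2.80 and 2.83 FPKM in saline. Its lowest, median and highest levels were 1.85, 1.99 and 2.70 in OS, and the ON levels were 2.08, 1.78, 2.78, 2.02 and 2.02. The groups did not overlap, but the margin was narrow, 2.78 in ON 3 against 2.80 in CT 4, and Klrg1 rests on 28 to 100 reads per library. The OVA mean was 63.3% of the saline mean.

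On the log2(FPKM + 1) scale, which understates differences of low genes, OVA minus saline was -0.64 ± 0.12 (SE) for Gzma, -0.80 ± 0.20 for Ncr1 and -0.48 ± 0.12 for Klrg1. These 3 of 10 genes were past the limma threshold on the lower side, beside 1.38% of the 15672 genes tested, and they were the 3 whose libraries did not overlap, beside 0.581%. Since the contrast chose the genes, nothing is read from these counts. With CT 1, CT 2 or CT 3 left out 1 of the 10 was past the threshold. Relative to the T-cell markers described below 0 were, though the differences hardly moved: -0.63 for Gzma, -0.79 for Ncr1 and -0.47 for Klrg1. Ncr1 was at -0.67 without ON 2 and at -0.66 without the libraries with pancreatic reads. The next lowest genes were Eomes at -0.14 and Klrb1c at -0.13. Gzmm (-0.07), Gzmk (-0.04), Nkg7 (0.01) and Prf1 (0.02) were near 0, and Gzmb was at 0.30 ± 0.20. Without CT 4, Eomes was at -0.31, Klrb1c at -0.25, Gzmk at -0.16, Gzmm at -0.12, Nkg7 at -0.16 and Prf1 at -0.12, so the last 2 changed sign. Several other single libraries also moved these small differences by over 1.5 times. The median of the 10 was -0.10, against 0.01 for all genes, and 7 of the 10 were below 0, beside 48.3% of all genes. Single libraries moved that median, to -0.21 without CT 4, to -0.06 without CT 2 or OS 5, and to -0.05 without ON 2.

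**Figure D2:**
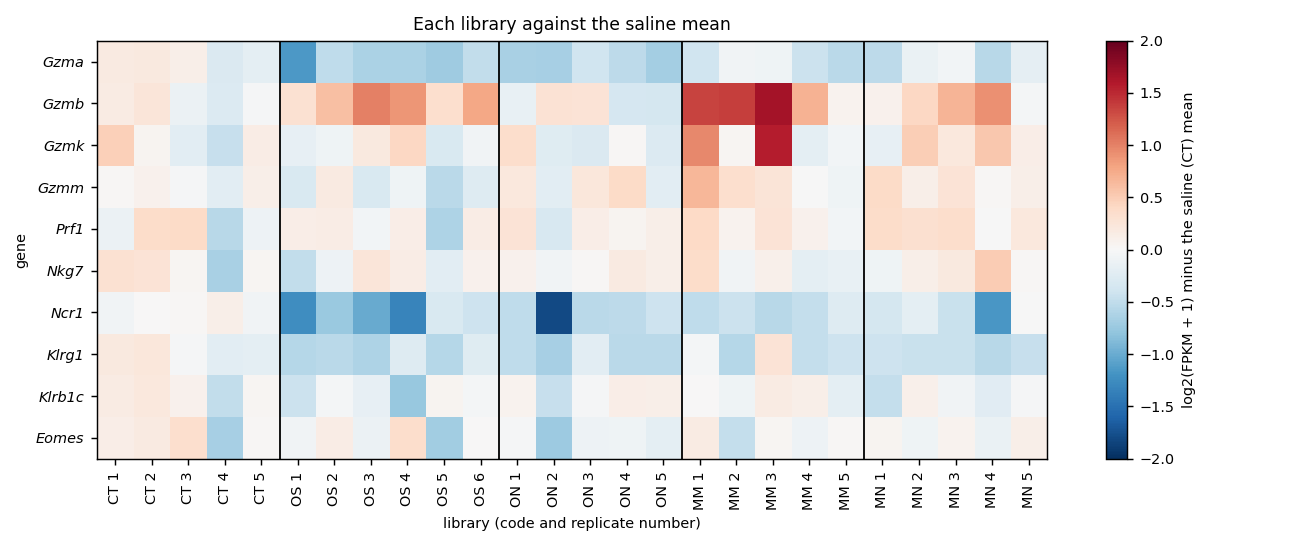
Difference of each library from the saline mean on the log2(FPKM + 1) scale, for the 10 genes (rows) in 26 libraries (columns); blue is lower and red higher than the saline mean, and lines separate the codes. Gzma and Ncr1 are blue in all 11 OVA libraries, and the column of CT 4 is blue for 9 of 10 genes.

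With the mimic, the genes stood higher than under OVA on average, but no difference passed the threshold. All 10 log2 differences between OVA with mimic and OVA were above 0, while 49.3% of all genes tested were below 0, although relative to T-cell markers (below) 4 of the 10 were below 0. Their median was 0.23 against 0.00 for all genes. None of the 10 genes was called by limma (adjusted p of 0.252 to 0.864), and neither was any of the 15672 genes (0%), which voom on the recovered reads also left at 0, while library weights called 36 genes of the table and none of the 10. Without an adjustment 5 of the 10 had a p under 0.05, namely Gzma, Gzmb, Gzmk, Gzmm and Ncr1, beside 10.1% of all genes. With CT 4 left out 22 genes of the table were called, and with OS 5 left out 2. The comparison shares the OVA libraries with the contrast that chose the genes, so a low OVA mean enters both.

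Gzma with the mimic was 29.0, 36.5, 36.0, 28.3 and 26.1 FPKM in MM and 26.4, 35.1, 37.0, 25.97 and 33.8 in MN. All 10 libraries were above the OVA mean and 6 above the highest OVA library, while 5 lay within the saline range and 5 below it. The mean was 31.4 ± 4.68 (n = 10), 80.8% of the saline mean. The log2 difference from OVA was 0.34 ± 0.09 (95% interval 0.14 to 0.53, limma adjusted p = 0.252). The difference from saline was -0.30 ± 0.12 (adjusted p = 0.732).

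Ncr1 with the mimic was 7.30, 7.84, 7.07, 7.54 and 8.93 FPKM in MM and 8.32, 9.40, 7.71, 4.28 and 10.9 in MN. Of these 10 libraries 9 were below the lowest saline library, MN 5 lay within the saline range, and 3 were above the highest OVA library. The log2 difference from OVA was 0.36 ± 0.16 (95% interval 0.02 to 0.69, limma adjusted p = 0.457) and fell to 0.23 without ON 2. From saline it was -0.44 ± 0.20 (adjusted p = 0.732).

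Klrg1 with the mimic was 3.27, 1.97, 4.32, 2.14 and 2.29 FPKM in MM and 2.30, 2.21, 2.23, 2.00 and 2.18 in MN. The 5 MN libraries all lay below the saline libraries (beside 0.351% of all genes) and inside the OVA range, and only MM 1 and MM 3 reached saline levels. The log2 difference from OVA was 0.13 ± 0.09 (95% interval -0.07 to 0.32, limma adjusted p = 0.653), and it was 0.06 without MM 3. From saline it was -0.35 ± 0.12 (adjusted p = 0.732), and with library weights it was -0.42 (limma adjusted p = 0.0353).

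Among the 7 genes whose OVA and saline libraries overlapped, those with the wider gaps between mimic and OVA were granzymes. Gzmb had the largest difference of all 10 genes, 0.43 ± 0.16 (limma adjusted p = 0.394). Its mean had been higher, not lower, under OVA than in saline, so this was not a move back. Gzmk, a tryptase of memory T cells and NK subsets, differed by 0.40 ± 0.18 (limma adjusted p = 0.462), with 6.43 FPKM in MM 3 and 3.82 in MM 1 against 1.02 to 2.33 under OVA, and by 0.26 without MM 3. Gzmm, a protease that cleaves after methionine, differed by 0.28 ± 0.10 (adjusted p = 0.379). Prf1 differed by 0.18, Eomes by 0.11, Nkg7 by 0.07 and Klrb1c by 0.06, and the 95% interval of each of these 4 held 0.

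The T-cell markers moved with this result. The 12 T-cell lineage genes had a median log2 difference of 0.22 between OVA with mimic and OVA, close to the 0.23 of the 10 genes, with 9 of 12 above 0 and 0 called; NK cells also express some of them, such as Cd247 and Lck. Between OVA and saline the 12 genes went both ways, from -0.45 (Cd2) to 0.44 (Cd28), and none was called. The summed level of the 12 ran from 179.5 to 258.9 FPKM in saline (median 253.4). It ran from 154.7 to 386 FPKM under OVA (median 220.9) and from 140.4 to 363.9 with the mimic (median 259.5). Taken relative to the T-cell list in each library, the median of the 10 genes between mimic and OVA was 0.05, with 6 above 0 and 4 (Nkg7, Klrg1, Klrb1c and Eomes) below. On that scale Gzma was at 0.15 and Ncr1 at 0.18. The part of T-cell content in the result was not tested beyond this rescaling.

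**Figure D3:**
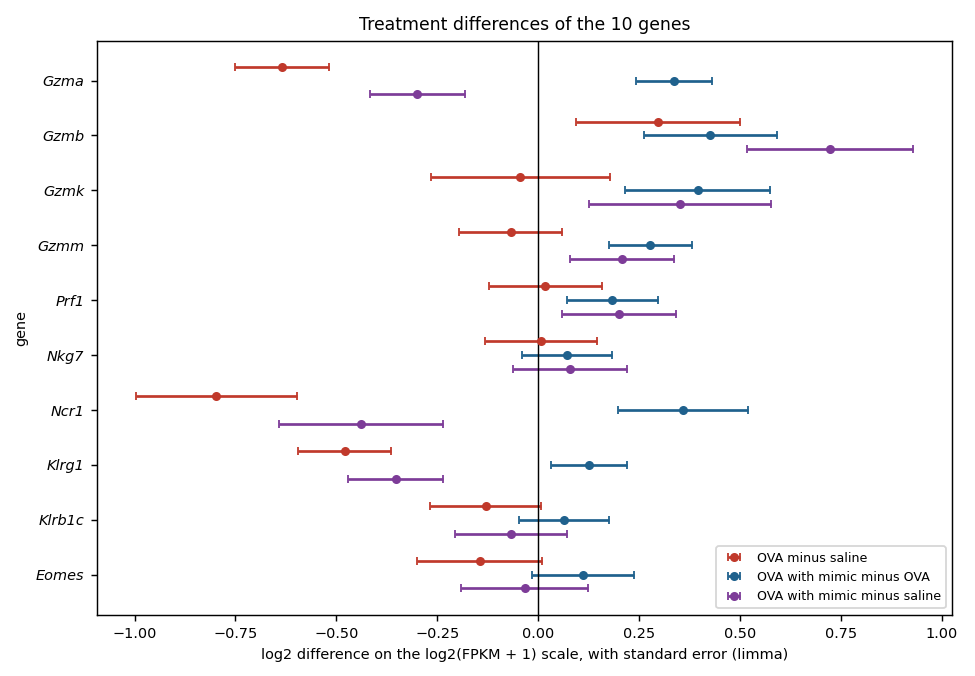
Log2 differences of the 10 genes on the log2(FPKM + 1) scale, with standard errors, for OVA minus saline (red), OVA with mimic minus OVA (blue) and OVA with mimic minus saline (purple). All 10 blue points lie right of 0 (4 of them fall below it relative to T-cell markers), while the purple points of Gzma, Ncr1 and Klrg1 stay left of it.

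Set against saline, the mimic libraries gave a median of 0.02 over the 10 genes, with 5 above and 5 below 0 (48.4% of all genes were below) and none called (0% of all genes; 1 gene of the table without MN 2, and 36 with library weights). Without an adjustment 4 of the 10 had a p under 0.05, beside 6.72%. The sign of that median rests on single libraries: it was -0.14 without CT 4 and -0.01 without MM 1. This comparison shares the saline libraries with the contrast that chose the genes. Gzmb differed most, at 0.72 ± 0.21 (limma adjusted p = 0.646).

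Gzmb (ENSMUSG00000015437, chromosome 14, 56496295 to 56499717), a protease that triggers apoptosis and is made on activation, went apart from Gzma. It was 4.12, 4.43, 3.21, 2.81 and 3.52 FPKM in saline, 4.63, 5.98, 8.21, 7.46, 4.75 and 6.83 in OS, and 3.11, 4.57, 4.51, 2.65 and 2.58 in ON. All 6 OS libraries were above the highest saline library (beside 1.4% of all genes) and the highest ON library, while ON overlapped with saline. With the mimic it was 10.7, 11.004, 13.5, 6.41 and 3.80 in MM and 3.88, 5.13, 6.33, 7.62 and 3.45 in MN, so that 3 MM libraries exceeded every other library and MM 5 lay within the saline range.

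The difference between OS and ON does not use the contrast that chose the genes. Here Gzmb was 0.71 ± 0.23 higher in OS (95% interval 0.24 to 1.18), 1.81 times the ON mean, but it did not pass (limma adjusted p = 0.226). None of the 10 genes was called between OS and ON, where 0.185% of all genes were (2 of the 10 without an adjustment, beside 10.6%), and the complete separation of Gzmb was shared by 0.44% of genes. Between MM and MN, Gzmb was 0.62 ± 0.24 higher in MM (95% interval 0.13 to 1.11, adjusted p = 0.497), 1.72 times the MN mean, and again none of the 10 was called, beside 0.172% of all genes (1 without an adjustment, beside 7.25%). Between MM and CT, Gzmb differed by 1.03 ± 0.24 (limma adjusted p = 0.0553, and 0.0129 to 0.400 over 36 recalculations, 4 of them past the threshold), beside 0.3% of all genes called. The other 9 genes differed by -0.30 to 0.16 between OS and ON, with Gzmm lowest (-0.30 ± 0.14, adjusted p = 0.457), and by -0.14 to 0.22 between MM and MN.

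The ratio of Gzmb to Gzma in the same library puts both movements together. Its median was 0.0941 in saline (range 0.0768 to 0.105), 0.263 in OS (0.205 to 0.337) and 0.128 in ON (0.1003 to 0.190). It was 0.301 in MM (0.146 to 0.374) and 0.147 in MN (0.102 to 0.293). Every OS library exceeded every saline and every ON library, and saline was the narrowest of the 5 codes. The mimic libraries as a whole ran from 0.102 to 0.374, which covers the OVA range of 0.1003 to 0.337 except at its lower end.

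**Figure D4:**
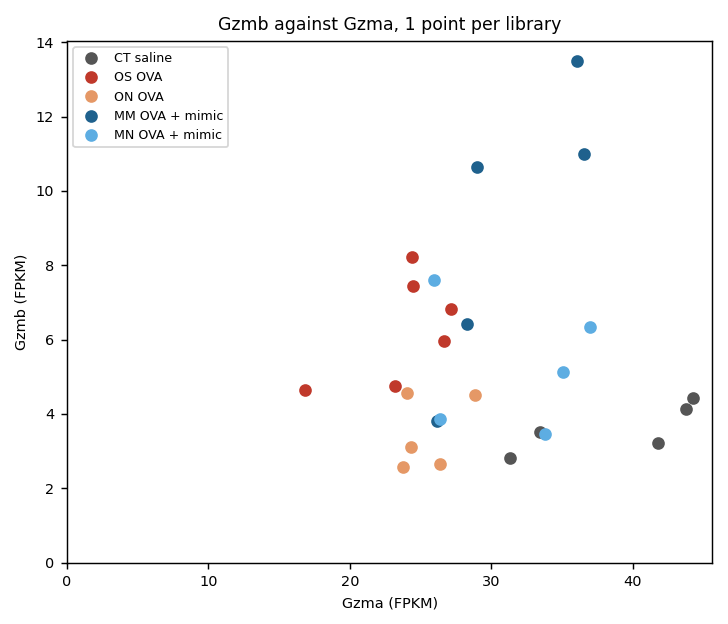
Gzmb against Gzma in FPKM, 1 point per library, coloured by code. Saline libraries lie to the lower right, OS libraries to the left and above ON libraries, and 3 MM libraries stand highest at 10.7 to 13.5 FPKM of Gzmb.

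Within codes the genes varied partly together. After each gene was centred on its code means, 42 of the 45 pairs had a correlation above 0 over the 26 libraries, with a median of 0.36 and a range of -0.47 (Gzmb with Ncr1) to 0.84 (Prf1 with Eomes); libraries share depth and cell makeup, and no test is attached. Ncr1 stood apart, with a correlation of 0.06 with the mean of the other 9. It went with Klrb1c (0.57). Without the libraries with pancreatic reads the median over the pairs was 0.40, and the pairs without Ncr1 all stayed above 0. Ncr1 then lay below 0 with Gzmb (-0.48), Gzmk (-0.39), Nkg7 (-0.33), Eomes (-0.29), Prf1 (-0.18), Gzmm (-0.18) and Klrg1 (-0.05). Ncr1 stayed above 0 with Klrb1c (0.43) and Gzma (0.32). The correlations were not recalculated without CT 4, the lowest saline library for every gene but Ncr1 and the highest for Ncr1. With the T-cell list, Eomes correlated at 0.76, Gzmk at 0.66 and Klrg1 at 0.64, while Gzma (0.07) and Ncr1 (-0.13) did not follow it. The 10 other genes whose within-code pattern was most like the mean of the group were Rarg (0.87), Nudt16, Chmp5, Nat14, Tmem141, Batf3, Endog, Lsm5, Rab37 and Ppcs (0.81).

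The wider cytotoxic programme did not move as a block. Of the 14 measured genes of granule biogenesis and killing that passed the filter on low values, none was called in OVA against saline, mimic against OVA, mimic against saline, OS against ON or MM against MN, and their median was 0.04 under OVA and 0.00 with the mimic. The abundant ones were Lamp1, a lysosomal membrane protein (133.3 FPKM on average), Srgn, the granule proteoglycan (120.1), and Serpinb6b, an intracellular serpin (28.9). Fasl, the death ligand, passed by code. It averaged 1.58 FPKM in saline, 3.33 in OS, 1.80 in ON, 3.80 in MM and 2.09 in MN. It rose in OS against saline by 0.79 ± 0.20 (limma adjusted p = 0.0337), beside 2.99% of all genes called, and passed in 26 of 36 recalculations but not without CT 1, CT 3, CT 4, OS 2 or OS 4. It rose in MM against saline by 0.96 ± 0.21 (adjusted p = 0.0470), but passed in 10 of 36, with the call kept only without CT 5, OS 4, OS 5, ON 2, ON 5 or MN 3 when 1 library was left out. Between mimic and OVA as a whole Fasl differed by 0.17 (adjusted p = 0.709). Of 6 further granzymes none passed the filter: Gzmd, Gzme, Gzmg and Gzmn were listed at 0 in all 26 libraries, Gzmf in 25 and Gzmc in 12.

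Of 28 other NK receptors and adaptors, 20 passed the filter, with a median of 0.01 under OVA and -0.02 with the mimic and none called in the same 5 comparisons. Tyrobp, the adaptor of activating receptors, averaged 148.4 FPKM, Hcst, its partner for NKG2D, 24.4, and Fcgr3, the Fc receptor of NK and myeloid cells, 18.2. Cd160, a receptor of NK and intraepithelial lymphocytes, fell in OS against saline by 0.42 on the log2 scale (limma adjusted p = 0.0485) and rose from OS to MN by 0.67 ± 0.12 (adjusted p = 0.00250). Its means were 1.73 ± 0.298 FPKM in saline, 1.05 ± 0.278 in OS, 1.61 ± 0.287 in ON, 1.75 ± 0.389 in MM and 2.25 ± 0.317 in MN. The step from OS to MN passed in 35 of 36 recalculations, all but the scaling to T-cell markers. That from saline to OS passed in 8 of 36, and leaving out any 1 library other than CT 1, OS 2, OS 5, ON 2, MM 1 or MM 4 ended the call. Between mimic and OVA as a whole Cd160 differed by 0.37 ± 0.08 (adjusted p = 0.139). From OS to MN 2.89% of all genes were called, and Gzma differed by 0.40 ± 0.13 there (limma adjusted p = 0.0886). The other pairs of a mimic and an OVA code called fewer: 0% from OS to MM, 0% from ON to MM and 0.249% from ON to MN.

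Among 7 NK transcription factors above the filter, Nfil3, which is needed for NK development and is also induced in myeloid and T cells, rose in OS against saline by 1.55 ± 0.34 (limma adjusted p = 0.0128). This call held in 35 of 36 recalculations, all but the scaling to T-cell markers. From OS to MN it fell by 1.48 on the log2 scale (adjusted p = 0.0195), a call that was lost without MN 2 or MN 5. Its mean was 2.65 ± 0.416 FPKM in saline (n = 5), 10.5 ± 4.34 in OS (n = 6), 5.85 ± 6.08 in ON (n = 5), 4.70 ± 1.57 in MM (n = 5) and 2.97 ± 1.17 in MN (n = 5), and ON 2 alone was at 16.7. The other 6, among them Ets1 (69.9 FPKM on average), Id2 (61.1) and Runx3 (11.3), were not called in these comparisons.

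Of 9 trafficking and secretion genes above the filter, 6 were lower and 3 higher under OVA, with a median of -0.30 and none called; with the mimic the median was 0.20 against OVA. In OS against saline 3 were called, beside 2.99% of all genes. Ccl3 and Ccl4, chemokines released by activated lymphocytes and macrophages, rose by 1.57 ± 0.42 (limma adjusted p = 0.0409) and 1.77 ± 0.48 (adjusted p = 0.0421). S1pr5, the receptor by which mature NK cells leave lymphoid tissue, fell by 0.65 (adjusted p = 0.0424), and from OS to MN it rose by 0.68 ± 0.17 (adjusted p = 0.0357). These 4 calls were fragile. Ccl3 passed in 22 of 36 recalculations and not without CT 1, CT 2, CT 3, CT 4, OS 2, OS 3, OS 4, OS 6 or MN 1. Ccl4 passed in 17 of 36, and with 1 library left out it held only without CT 5, OS 1, OS 5, ON 2, ON 3, ON 5, MN 2 or any of MM 1 to MM 4. S1pr5 in OS against saline passed in 17 of 36, and was lost without CT 1, CT 2, CT 3, CT 5, any of OS 1 to OS 5, ON 1, MM 5, MN 1, MN 3 or MN 5. From OS to MN it passed in 25 of 36, and was lost without any of OS 1 to OS 4, MN 1, MN 2, MN 3 or MN 5. The other mimic code, MM, did not show this rise: S1pr5 differed by 0.07 from OS to MM (limma adjusted p = 0.992). From ON it differed by -0.29 to MM (adjusted p = 0.977) and by 0.32 to MN (adjusted p = 0.590). Ccl5, the most abundant of the list at 65.5 FPKM, was not called. The 7 genes of the IL-15 axis, the cytokine that keeps NK cells alive, were all above 0 under OVA with a median of 0.17 and none called.

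**Figure D5:**
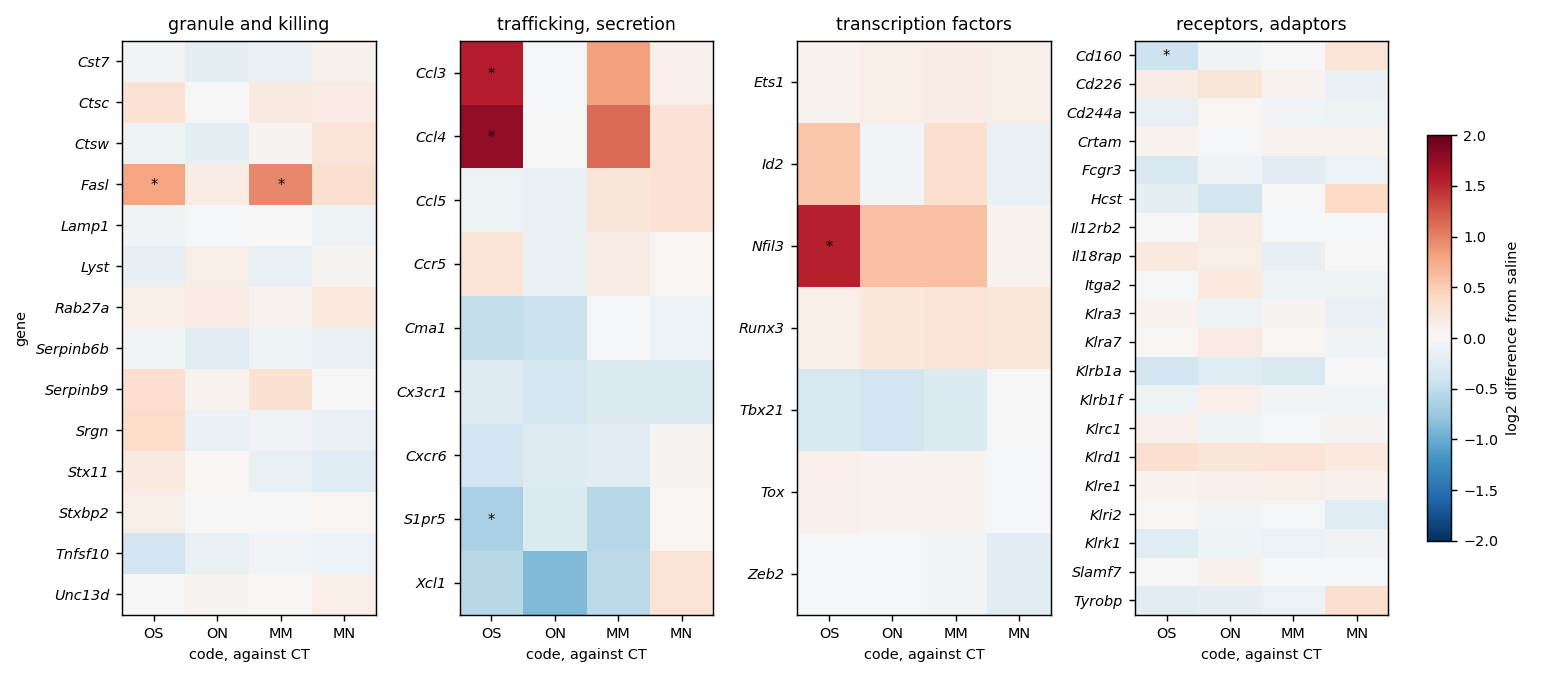
Log2 differences from saline of the related genes above the filter, by code OS, ON, MM and MN, in 4 lists; red is higher and blue lower than saline, and a star marks a limma adjusted p under 0.05. The stars fall on Fasl, Ccl3, Ccl4, S1pr5, Nfil3 and Cd160 in OS and on Fasl in MM.

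Other cell types in the same libraries moved too. Neutrophil markers had a median log2 difference of 0.50 under OVA and -0.82 with the mimic against OVA. Basophil and mast cell markers (Mcpt8, Prss34 and Cpa3, those above the filter) had 0.53 and -0.62, with none of either list called. The summed neutrophil level ran from 1492 to 8160 FPKM in saline, 2174 to 7294 under OVA and 923.9 to 8016 with the mimic, so the groups overlap. By code its median was 2699 in saline, 4843 in OS, 3838 in ON, 1154 in MM and 3775 in MN. The lower neutrophil level with the mimic thus lay mostly in MM. B-cell markers stood at -0.08 and 0.09. Ribosomal protein genes had a median of -0.50 under OVA (18 of 82 called lower, beside 1.38% of all genes). With the mimic against OVA their median was 0.25 (none called). Whether RNA quality has a part in this was not tested. Erythroid markers had a median of -0.32 under OVA, with 8 of 9 below 0 and none called, and of 0.04 with the mimic against OVA. Mitochondrially encoded genes had a median of -0.22 under OVA (3 of 29 called lower, beside 1.38% of all genes). With the mimic against OVA their median was -0.12 (none called). Their median share of reads was not lower under OVA, at 1.81% against 1.56% in saline, where CT 4 alone was at 6.62%. The value of -0.22 was not recalculated without CT 4. The part of these shifts in the differences of the 10 genes was not tested.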

How the data were processed

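The deposited table gives FPKM, scaled by the authors to gene length and an effective library size, with a gene length, for 26 spleen libraries. The submitters' processing notes list, without roles, HISAT2 2.0.5, edgeR 3.24.3, DESeq2 1.20.0, featureCounts 1.5.0-p3, StringTie 1.3.3b and CASAVA. Neither labels nor notes name a genome build. FPKM multiplied by gene length came out as whole multiples of 1 step in 100% of values (tolerance 0.05), from which reads were recovered. A single read on 1 kilobase is worth 0.0520 to 0.0899 FPKM, and this covers counting error only.

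Genes with at least 1 FPKM in at least 5 libraries were kept, which left 15672. limma 3.58.1 (R 4.3.3) fitted log2(FPKM + 1) with 1 mean per code over all 26 libraries and a variance trend; OVA is the average of the OS and ON means, and the mimic group is the average of the means of MM and of MN. P-values were adjusted by Benjamini-Hochberg over all genes within each of 13 comparisons, at 0.05. The fit was tested on simulated data with planted changes larger than the treatment differences of the 10 genes, so not at their size. The members and gene lists were chosen with earlier results of these data known; the text names all 10 members, of other lists at most 4 genes that passed and the 3 most abundant that did not, the 10 genes most like the members, and genes that a tissue check needs. Motifs and seed matches were counted in RefSeq promoters and GENCODE 3′ UTRs of GRCm38. Alternatives covered the pseudocount, filter, fit, scaling, weights and each library left out; those on Fasl, Cd160, Nfil3, S1pr5, Ccl3, Ccl4 and single code contrasts were added after the data were seen.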

Additional observations from a re-analysis of the deposited data

Results flagged for a closer look

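Each gene was examined for a library far from the others of its code or treatment group, in the 55 groups of 4 to 10 libraries, and 2 stood out; about 1 in 20 groups would by chance. Prf1 in OS 5 was 4.17 FPKM, with the nearest OS library at 6.62. Ncr1 in ON 2 was 2.39 FPKM, with the nearest ON library at 7.15, and ON 2 is also the library with 24.2% of reads on pancreas genes.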

How the results depend on the processing

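The median differences of the 10 genes moved by less than the SD between libraries (0.22) in all 183 recalculations, and of 1830 recalculated differences of single genes all but 4 moved by less than the gene's own SD between libraries (0.21 to 0.43). These limits are wide beside the differences, so a loss or a change of sign can stay within them. Relative to the T-cell list the median went from 0.23 to 0.05 for mimic against OVA. For mimic against saline it went from 0.02 to -0.15. Of the 1830, 57 changed sign, all in differences of at most 0.22 that had not passed, among them, in mimic against OVA, 4 genes relative to the T-cell list and Klrb1c with library weights; 22 crossed the threshold, 21 of them in OVA against saline and 1 in mimic against saline. Leaving out each library in turn gave medians of -0.21 to -0.05 for OVA against saline, 0.18 to 0.26 for mimic against OVA, -0.14 to 0.08 for mimic against saline, -0.14 to -0.01 for OS against ON and -0.02 to 0.09 for MM against MN. Of the 10 genes 3 were past the threshold in OVA against saline. That contrast chose the genes, so nothing is read from the count. The count was 1 with no filter on low values, 1 with 1 mean per treatment and 1 on reads scaled to the library total. It was 0 relative to the T-cell list, and 1 to 3 with each library left out (1 without CT 1, CT 2 or CT 3). In mimic against saline 0 were past the threshold, and 1 with library weights. Genes called in OVA against saline numbered 340, and 150 with no filter, 117 in a fit to those libraries only, 87 with 1 mean per treatment, 82 relative to the T-cell list, 1435 with library weights, 108 without the pancreatic libraries, and 152 to 484 with each library left out (152 to 225 without CT 1, CT 2, CT 3, CT 5, ON 1 or ON 2). Mimic against OVA gave 0, 36 with weights and 0 to 22 with each library left out (22 without CT 4, 2 without OS 5), and mimic against saline 0, 36 and 0 to 1 (1 without MN 2). OS against ON gave 29, 17 with a pseudocount of 0.1, 6 with no filter, 0 in its own libraries, 68 on reads scaled to the library total, 3 relative to the T-cell list, 45 by voom on the recovered reads, 564 with weights, 123 without the pancreatic libraries and 3 to 260 with each library left out (260 without OS 5, 216 without ON 2, 67 without CT 4, 47 without OS 1, and 3 to 16 without CT 2, OS 2, OS 3, OS 4, ON 1, ON 3, ON 4, ON 5, MM 5 or MN 1). MM against MN gave 27, 7 with no filter, 123 in its own libraries, 8 relative to the T-cell list, 474 with weights and 1 to 54 with each library left out (54 without CT 4, and 1 to 16 without MM 1, MM 4, MM 5 or any MN library). The causes were not tested. Replicate numbers did not pair the libraries: over 50 pairs with the same number the correlation of deviations ran from -0.39 to 0.36 (median -0.04), and with the number as a replicate block 184 genes were called in OVA against saline and 3 in OS against ON. Depth limits Gzmm and Klrb1c most.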
